A study of Mus musculus with 30 samples.

Results

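The 9 genes described here encode the enzymes and regulators of polyamine metabolism in mouse soleus: Odc1, Amd1, Srm and Sms of the synthesis route, Smox and Sat1 of the breakdown route, and the ornithine decarboxylase regulators Azin1, Oaz1 and Oaz2. They were taken from the gene table by symbol alone, and are 9 of 56980 genes in all. All 9 had enough counts to be tested, as 16932 genes did. The soleus is a calf muscle used in standing, and its RNA was sequenced from 30 mice of the C57BL/6J strain aged 3 to 4 months. HU mKO mice (n = 8, 3 male and 5 female) had both AMP-activated protein kinase (AMPK) catalytic subunit genes deleted in skeletal muscle and spent 4 weeks with their hindlimbs unloaded. HU Ctrl mice (n = 7, 4 male and 3 female) were unloaded for the same 4 weeks. AMB mKO mice (n = 7, 5 male and 2 female) carried the deletion and stayed ambulatory for 4 weeks. AMB Ctrl mice (n = 8, 3 male and 5 female) were ambulatory controls. Mice of all 4 groups carried floxed alleles of both subunit genes, and the controls had no Cre; the promoter that drives Cre in mKO mice is not given in the sources used here. Each library is a different mouse.

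Polyamines are small positively charged molecules that bind nucleic acids and are needed for translation and growth. Ornithine decarboxylase (Odc1) makes putrescine from ornithine, S-adenosylmethionine decarboxylase (Amd1) supplies the aminopropyl donor, spermidine synthase (Srm) makes spermidine, and spermine synthase (Sms) makes spermine. Spermidine/spermine N1-acetyltransferase (Sat1) marks polyamines for export or oxidation, and spermine oxidase (Smox) turns spermine back into spermidine. Antizymes (Oaz1, Oaz2) bind ornithine decarboxylase and lead it to the proteasome, and the antizyme inhibitor (Azin1) binds antizymes in its place. In mouse skeletal muscle, Smox is known as a gene that falls in atrophying muscle.

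Promoter windows of Odc1, the member that fell on unloading, and of Amd1 and Smox, the members with the largest differences between the sexes, are shown first. Each window is the sense strand from 250 bases before to 50 bases after the gene start of RefSeq on GRCm38.p6, and capitals mark matches to the motifs searched.
Odc1, chr12:17544623-17544922, plus strand: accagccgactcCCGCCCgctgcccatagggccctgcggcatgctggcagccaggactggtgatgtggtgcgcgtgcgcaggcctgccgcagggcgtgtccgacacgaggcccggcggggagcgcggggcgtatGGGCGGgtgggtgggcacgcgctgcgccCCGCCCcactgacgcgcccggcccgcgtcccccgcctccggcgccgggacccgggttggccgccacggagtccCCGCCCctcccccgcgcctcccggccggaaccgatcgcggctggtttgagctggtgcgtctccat
Amd1, chr10:40302139-40302438, minus strand: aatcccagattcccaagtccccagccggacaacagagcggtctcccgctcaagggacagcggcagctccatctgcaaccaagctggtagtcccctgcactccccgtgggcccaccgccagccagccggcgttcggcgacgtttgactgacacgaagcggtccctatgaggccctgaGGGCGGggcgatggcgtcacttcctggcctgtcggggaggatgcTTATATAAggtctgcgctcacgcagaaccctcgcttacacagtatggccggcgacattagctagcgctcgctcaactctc
Smox, chr2:131491612-131491911, plus strand: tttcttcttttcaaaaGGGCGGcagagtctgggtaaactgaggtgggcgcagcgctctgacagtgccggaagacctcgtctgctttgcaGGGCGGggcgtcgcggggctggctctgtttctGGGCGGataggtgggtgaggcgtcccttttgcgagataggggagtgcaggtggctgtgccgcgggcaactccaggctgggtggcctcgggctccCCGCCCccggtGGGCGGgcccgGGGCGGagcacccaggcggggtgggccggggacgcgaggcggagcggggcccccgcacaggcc
Each motif was read on both strands. The GC box was searched as GGGCGG. The E-box, the element that Myc binds, was searched as CACGTG. The CCAAT box was searched by the letters of its name. The TATA box was searched as TATAA. The Odc1 window held 4 GC boxes, with first bases at -238, -116, -88 and -15 from the start, and the Smox window held 6. The Amd1 window held 1 GC box at -74 and overlapping TATAA matches at -30 and -27. A GC box was present in 35.7% of 32851 mouse promoter windows of this length, and TATAA in 24.9%. None of the 3 windows contained CACGTG (present in 7.15% of all windows) or CCAAT (37.4%), which says only that these letters are not in these windows. Windows were found for 7 of the 9 members.

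The antizyme transcripts carry a stop codon that ribosomes pass by shifting frame when polyamines are plentiful, so that more of the full protein is made then. The site in GENCODE M21 transcripts is shown because Oaz1 and Oaz2 are the most abundant members here; capitals mark the last sense codon before the shift and the stop codon.
Oaz1, chromosome 10: cctcggtggtgcTCCTGAtgtccctcaccc
Oaz2, chromosome 9: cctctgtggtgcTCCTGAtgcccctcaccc
Both genes have the same codon pair in a nearly identical context. The counts cover the whole transcript and say nothing about how often ribosomes shift there.

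Total counts per library ran from 12083415 to 20895263 reads, and values are given as CPM, which are counts scaled to a common library size after TMM normalisation. Prkaa2, which encodes the main catalytic AMPK subunit of muscle, averaged 80.1 ± 18.5 CPM in HU mKO against 254 ± 73.2 CPM in HU Ctrl mice, and 60.3 ± 26.3 CPM in AMB mKO against 213 ± 28.3 CPM in AMB Ctrl mice (SD, n = 8, 7, 7 and 8). Prkaa2 did not overlap between genotypes in either condition and was 3.11-fold lower in unloaded and 3.71-fold lower in ambulatory mKO mice (adjusted p = 0.00193 and 0.000367, edgeR's quasi-likelihood test with Benjamini-Hochberg adjustment). Prkaa1, the other catalytic subunit gene, was not called in either comparison of genotypes (adjusted p = 0.9999 in unloaded and 0.891 in ambulatory mice, same test, edgeR). Muscle fibre markers (Acta1, Ckm, Ttn, Mb, Des) summed to 80517 CPM or more in every library other than AMB mKO replicate 2. That library, of a female, stood apart with 8625 CPM for that sum, 116 CPM of the slow myosin Myh7 and 11159 CPM summed over 8 adipocyte markers, against at most 4285 CPM in HU mKO mice, the next highest. The library of AMB Ctrl replicate 1, a male, held 4658 CPM of the fast myosin Myh4, against 13.8 to 1147 CPM in the 7 other AMB Ctrl mice.

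The levels of the members relative to exon length spanned a wide range. That length merges all annotated exons of a gene, so it can exceed the length of any single transcript. In AMB Ctrl mice, CPM per kilobase of exon averaged 67.4 ± 8.04 for Oaz1 and 27.1 ± 6.73 for Oaz2 (SD, n = 8). Odc1 at 15.6 ± 2.63 and Amd1 at 15.2 ± 9.96 came next and did not differ beyond their spread. Below them were Sat1 at 7.18 ± 1.62, Srm at 6.12 ± 0.85, Azin1 at 5.86 ± 1.05, Sms at 5.00 ± 1.09 and Smox at 3.55 ± 2.11 CPM per kilobase. Neighbours in this order overlapped in mean ± SD. The SD of Smox includes replicate 1, at 34.0 CPM against 9.43 to 12.1 CPM in the other AMB Ctrl mice. The antizyme transcripts, whose proteins restrain ornithine decarboxylase, were thus more abundant per length of merged exons than that of the enzyme in AMB Ctrl mice. Mean levels per kilobase in HU mKO, HU Ctrl and AMB mKO mice kept Oaz1 highest, Oaz2 next and Smox lowest.

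**Figure D1:**
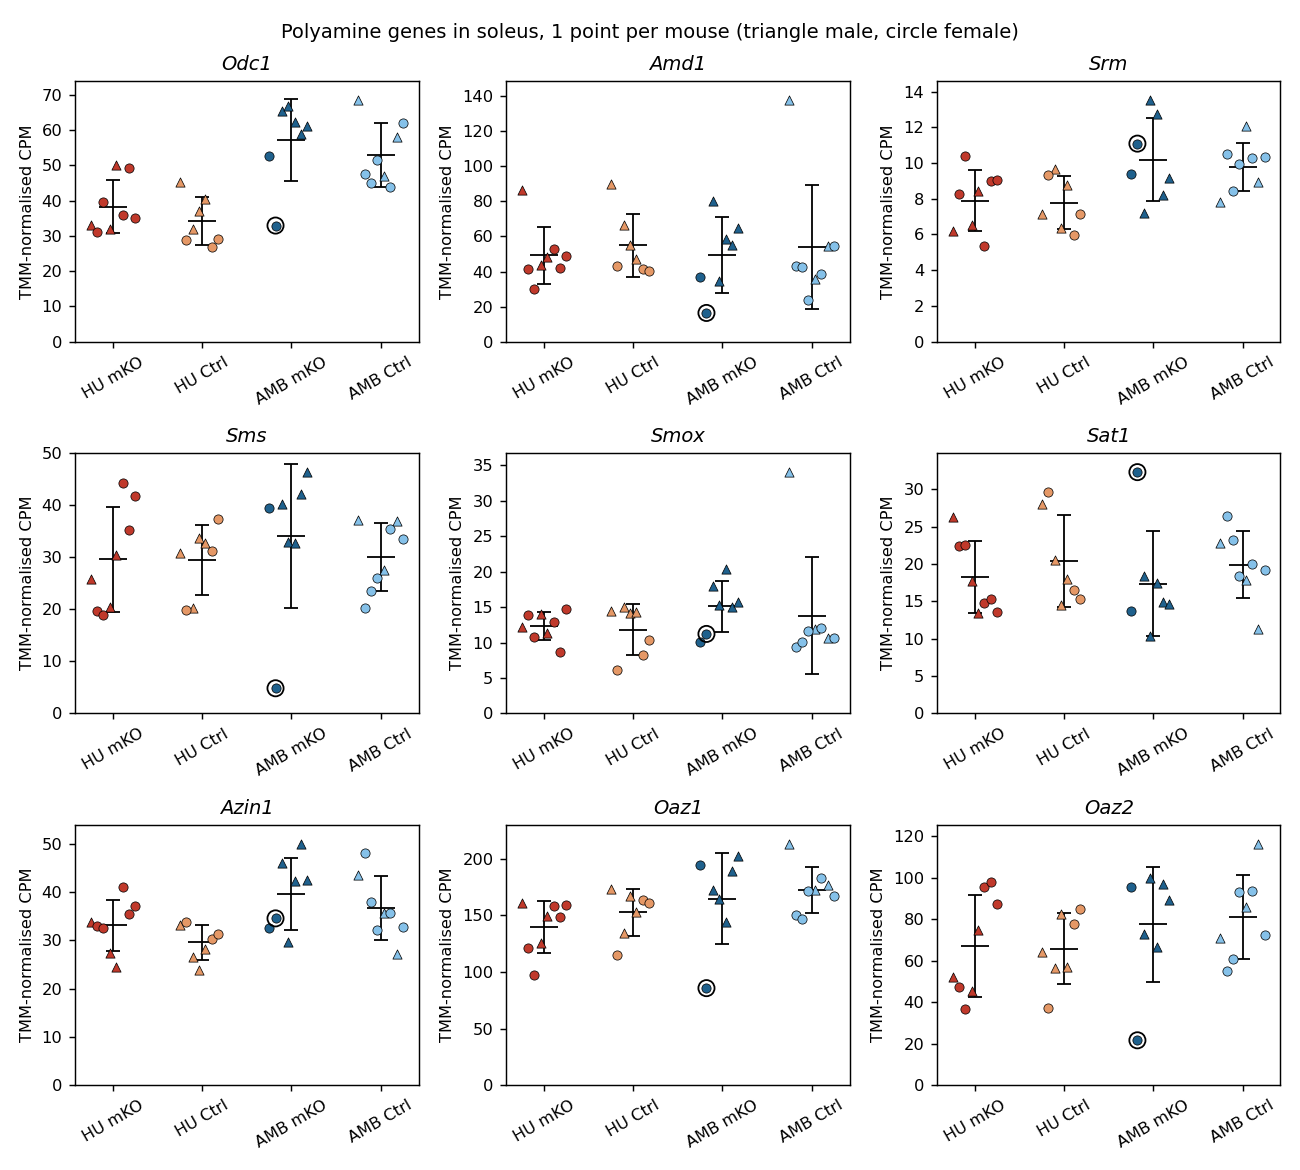
TMM-normalised CPM (y axis, linear from 0) of each of the 9 genes in HU mKO, HU Ctrl, AMB mKO and AMB Ctrl mice (x axis), 1 point per mouse, with the mean and SD as bars; triangles are males, circles females, and a ring marks AMB mKO replicate 2. For Odc1, the HU mKO and HU Ctrl points lie between 26.8 and 50.2 CPM, and those of AMB mKO and AMB Ctrl mice, apart from the ringed library at 32.9, between 43.9 and 68.4.

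Odc1, the gene of the enzyme that starts polyamine synthesis, fell in unloaded mice of both genotypes, and it was the member called in each comparison. Odc1 had a lowest, median and highest value of 26.8, 31.8 and 45.3 CPM in HU Ctrl mice, against 43.9, 49.6 and 68.4 CPM in AMB Ctrl mice. In 6 of 7 HU Ctrl mice the value was below every AMB Ctrl value, and the groups overlapped through 1 HU Ctrl male. The log2 change was -0.70 ± 0.13 (SE), 1.62-fold lower (adjusted p = 0.00119, edgeR's quasi-likelihood test with Benjamini-Hochberg adjustment over 16932 genes). Odc1 had a lowest, median and highest value of 30.98, 35.6 and 50.2 CPM in HU mKO mice, against 32.9, 61.3 and 66.8 CPM in AMB mKO mice. All 8 HU mKO values lay below the AMB mKO median, and the AMB mKO mice other than replicate 2, at 52.6 to 66.8 CPM, did not overlap with them. How many of all genes separate these mice was not counted. The log2 change was -0.46 ± 0.14 (SE), 1.37-fold lower (adjusted p = 0.0306, same test). In this RNA from whole muscle, fewer cells of a type and less RNA per cell cannot be told apart.

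That made 1 of 9 members called, in the falling direction, in HU Ctrl over AMB Ctrl, where 11.1% of all genes tested were called, and 1 of 9 in HU mKO over AMB mKO, where 10.1% were. A share of 1 in 9 is near that of all genes in both comparisons. Of the 9 members, 8 had a negative log2 change in HU Ctrl mice, with a median of -0.29 against 0.03 over all genes, and 7 had one in HU mKO mice, with a median of -0.17 against -0.04 over all genes. The sign of Sms, Amd1 and Sat1 in HU Ctrl mice, and of Sms, Amd1, Sat1 and Smox in HU mKO mice, turned under some of the alternatives. The 2 comparisons share no mice. Sample titles close with a letter (a, b or c) that the labels do not explain. Within letters a, b and c the log2 difference of Odc1 was -0.29, -1.10 and -0.60 in HU Ctrl over AMB Ctrl and -0.68, -0.53 and -0.43 in HU mKO over AMB mKO. These are differences of means from 2 or 3 mice a side, without sex in the model. Unloaded mice of letter a were all male and those of letter b all female, so letter and sex are tied there. The HU mKO call was lost with the compared groups alone (adjusted p = 0.0982), with no filter on low counts (0.0775), without HU mKO replicate 1 (0.0811) and without HU mKO replicate 4 (0.0805). Males were 3 of 8 HU mKO and 5 of 7 AMB mKO mice, and with sex left out of the model the change was -0.58 (adjusted p = 0.0107). The call held without the AMB mKO replicate 2 and AMB Ctrl replicate 1 libraries, with a log2 change of -0.57 (adjusted p = 0.00329).

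Srm, the next enzyme of the route, was lower in most unloaded mice without passing the test. Its lowest, median and highest values were 5.36, 8.33 and 10.4 CPM in HU mKO mice, against 7.22, 9.39 and 13.5 CPM in AMB mKO mice, and 5.95, 7.14 and 9.65 CPM in HU Ctrl mice, against 7.79, 10.1 and 12.1 CPM in AMB Ctrl mice. All 7 HU Ctrl mice lay below the AMB Ctrl median, and 7 of 8 HU mKO mice below the AMB mKO median, although the ranges overlapped. The log2 changes were -0.39 ± 0.16 in HU mKO (unadjusted p = 0.0201, adjusted p = 0.109) and -0.32 ± 0.15 in HU Ctrl mice (unadjusted p = 0.0499, adjusted p = 0.189; edgeR's quasi-likelihood test). limma's voom with library weights called Srm in HU Ctrl mice, at a log2 change of -0.43 with an adjusted p of 0.0190. Over all genes that tool also called more in this comparison than the 1882 of edgeR, as counted below.

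The other synthesis enzymes gave no call on unloading. Amd1 had a lowest, median and highest value of 30.2, 45.9 and 86.5 CPM in HU mKO, 40.4, 47.3 and 90.1 in HU Ctrl, 16.4, 55.0 and 79.97 in AMB mKO and 23.8, 43.0 and 138 CPM in AMB Ctrl mice. All 4 ranges overlapped, and in AMB Ctrl and in HU mKO mice the highest value stood far above the rest. Its 95% intervals of the log2 change were -0.21 to 0.83 in HU mKO over AMB mKO and -0.59 to 0.41 in HU Ctrl over AMB Ctrl mice. Sms, the spermine synthase gene, ran from 19.0 to 44.3 CPM in HU mKO against 4.84 to 46.3 CPM in AMB mKO mice, and from 19.8 to 37.3 CPM in HU Ctrl against 20.2 to 37.1 CPM in AMB Ctrl mice. Its log2 changes of -0.13 ± 0.29 and -0.05 ± 0.28 were smaller than their errors.

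Neither breakdown gene was called on unloading. Smox had a lowest, median and highest value of 8.71, 12.6 and 14.7 CPM in HU mKO mice, against 10.1, 15.3 and 20.4 CPM in AMB mKO mice. All 8 HU mKO values lay below the AMB mKO median, while the log2 change in the model with sex was -0.05 ± 0.20, with a 95% interval of -0.45 to 0.36. In HU Ctrl mice Smox was 6.13, 14.2 and 15.0 CPM, against 9.43, 11.2 and 34.0 CPM in AMB Ctrl mice, with a log2 change of -0.34 ± 0.19 (adjusted p = 0.264, edgeR's quasi-likelihood test). The HU Ctrl median was the higher one, and without AMB Ctrl replicate 1, at 34.0 CPM, and AMB mKO replicate 2 the log2 change was -0.02. Sat1, the acetyltransferase gene, had medians of 16.5 CPM in HU mKO against 14.9 CPM in AMB mKO mice and 17.99 CPM in HU Ctrl against 19.6 CPM in AMB Ctrl mice. Its log2 changes of 0.03 ± 0.21 and 0.08 ± 0.21 were smaller than their errors.

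The regulators of ornithine decarboxylase all had negative changes on unloading, and none passed the test. Azin1, whose protein frees the enzyme from antizymes, had a lowest, median and highest value of 24.5, 33.5 and 41.1 CPM in HU mKO mice, against 29.6, 42.4 and 49.98 CPM in AMB mKO mice. In HU Ctrl mice it was 23.8, 30.4 and 33.9 CPM, against 27.2, 35.7 and 48.1 CPM in AMB Ctrl mice. Every HU mKO and every HU Ctrl value lay below the median of its ambulatory group, and the ranges overlapped. The log2 changes were -0.30 ± 0.13 in HU mKO (unadjusted p = 0.0323, adjusted p = 0.143) and -0.29 ± 0.13 in HU Ctrl mice (unadjusted p = 0.0309, adjusted p = 0.142; edgeR's quasi-likelihood test). limma's voom with library weights called Azin1 in HU mKO mice, at -0.39 with an adjusted p of 0.0359. The number of all genes that tool called in this comparison is not given here. Oaz1 averaged 140 ± 23.0 CPM in HU mKO against 165 ± 40.1 CPM in AMB mKO mice, with a log2 change of -0.17 ± 0.15, and 153 ± 20.5 CPM in HU Ctrl against 173 ± 20.6 CPM in AMB Ctrl mice, with a change of -0.21 ± 0.14. Oaz2 averaged 67.1 ± 24.6 CPM in HU mKO against 77.5 ± 27.7 CPM in AMB mKO mice and 65.8 ± 17.1 CPM in HU Ctrl against 81.0 ± 20.1 CPM in AMB Ctrl mice. Its log2 changes were -0.17 ± 0.27 and -0.31 ± 0.26.

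**Figure D2:**
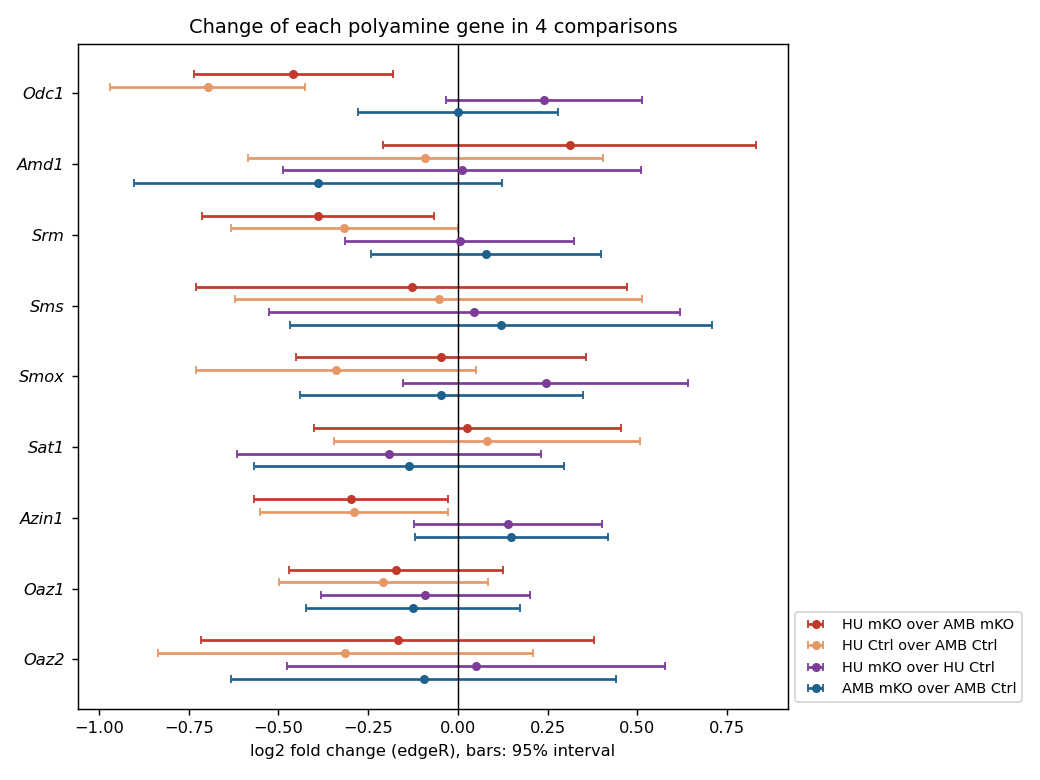
Log2 fold change (x axis) of each of the 9 genes (rows) in 4 comparisons, as points with 95% intervals from the edgeR model. The intervals of Odc1 lie below 0 in both unloading comparisons, as do those of Azin1 and Srm; all intervals of the genotype comparisons include 0.

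Among cell-type markers, 3 of 8 of the fast fibre list were called higher on unloading in both genotypes (Actn3, Myh1, Pvalb). Of these 8, 6 had positive and 2 negative log2 changes in HU Ctrl mice, and 8 had positive ones in HU mKO mice. The sum of all 8 ran from 20348 to 99841 CPM in HU mKO against 2955 to 32509 CPM in AMB mKO mice. It ran from 15463 to 69735 CPM in HU Ctrl against 10185 to 35136 CPM in AMB Ctrl mice. Of 8 slow fibre markers none was called, yet all 8 had negative log2 changes in both genotypes. Their median change was -0.83 in HU Ctrl and -0.72 in HU mKO mice. Their sum had medians of 15709 CPM in HU mKO against 24402 CPM in AMB mKO mice and 21378 CPM in HU Ctrl against 29054 CPM in AMB Ctrl mice. Col1a1 of the fibroblast list (1 of 6), Scx of the tenocyte list (1 of 6) and Kdr of the endothelial list (1 of 6) fell in both genotypes, and Acta2, Cnn1, Cspg4 and Myh11 (4 of 6 smooth muscle and pericyte markers) fell in HU Ctrl mice. These lists did not move as a whole. Positive log2 changes in HU Ctrl and HU mKO mice numbered 4 and 1 of 6 for fibroblast and 3 and 0 of 6 for tenocyte markers. They numbered 2 and 5 of 6 for endothelial and 1 and 4 of 6 for smooth muscle and pericyte markers. None of the 8 adipocyte, 6 macrophage, 5 Schwann, 4 satellite cell or 5 muscle fibre markers was called in either comparison. The part of these shifts in the change of Odc1 was not tested.

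Loss of AMPK gave no call among the members. In AMB mKO over AMB Ctrl and in HU mKO over HU Ctrl, 0 of 9 were called, with 0 below an unadjusted p of 0.05 by edgeR's quasi-likelihood test and 0 called by DESeq2 or by limma's voom with library weights. Few genes were called at all: 0.0177% of those tested in each comparison, or 3 genes. The median log2 change of the members was -0.05 in ambulatory and 0.05 in unloaded mice, against 0.02 and 0.01 over all genes. Odc1 had a log2 change of 0.0011 ± 0.14 in AMB mKO over AMB Ctrl, with a 95% interval that runs from 1.21-fold lower to 1.21-fold higher. In HU mKO over HU Ctrl the change was 0.24 ± 0.13, with a 95% interval of -0.03 to 0.51 (adjusted p = 0.9999, edgeR's quasi-likelihood test). In that comparison 7 of 8 HU mKO mice lay above the HU Ctrl median for Odc1, and 2 lay above every HU Ctrl mouse. The widest intervals in ambulatory mice were those of Sms, at -0.47 to 0.71, Oaz2, at -0.63 to 0.44, and Amd1, at -0.90 to 0.12. The intervals of all 9 members included 0 in both conditions.

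Unloading was not found to act differently without AMPK. The interaction of genotype and unloading was called for 0 of 9 members and for 0% of all genes tested by edgeR's quasi-likelihood test, with 410 genes and 0 members at an unadjusted p below 0.05, and for 0 members by DESeq2 or limma's voom. For Odc1 it was 0.24 ± 0.19 on the log2 scale, with a 95% interval of -0.16 to 0.64 (unadjusted p = 0.230, adjusted p = 0.999). The smaller fall in mKO mice is therefore not shown to differ from that in controls. The interaction estimates of the other members lay between -0.07 and 0.40, the highest being that of Amd1, with an interval of -0.33 to 1.13.

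The sexes differed in Amd1 and Smox by more than in the other members, though edgeR's test called neither. Amd1 had a lowest, median and highest value of 34.5, 55.4 and 138 CPM in 15 males, against 16.4, 41.3 and 54.7 CPM in 15 females. Males and females overlapped, with the highest values all from males. The log2 difference of males over females, with group in the model, was 0.77 ± 0.18, 1.70-fold higher (adjusted p = 0.0674, edgeR's quasi-likelihood test). Smox had a lowest, median and highest value of 10.7, 14.4 and 34.0 CPM in males, against 6.13, 10.7 and 14.7 CPM in females, with a log2 difference of 0.58 ± 0.14, 1.49-fold higher (adjusted p = 0.0891, same test). Odc1 had 31.8, 50.2 and 68.4 CPM in males, against 26.8, 39.7 and 62.1 CPM in females, with a difference of 0.29 ± 0.10 (adjusted p = 0.231, same test). Together 0 of 9 members were called between the sexes, where 0.213% of all genes were, and 3 of 9 had an unadjusted p below 0.05, against 12.6% of all genes.

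These differences between the sexes depended on the tool and on few libraries. DESeq2 called 2 members, Amd1 (adjusted p = 0.00791) and Smox (0.0175), and limma's voom called 0 (0.321 for Amd1 and 0.102 for Smox). Over all genes DESeq2 also called more between the sexes than the 36 of edgeR, as counted below. With the title letter in the model, edgeR called Amd1, at a log2 difference of 0.99 (adjusted p = 0.00127), and it did so without AMB Ctrl replicate 5 (0.0219) or HU mKO replicate 4 (0.0497). Without AMB Ctrl replicate 1 and AMB mKO replicate 2, a male high in both genes and a female low in Amd1, the differences were 0.47 for Amd1 and 0.37 for Smox (adjusted p = 0.533 each). By group, Smox was 14.2 to 15.0 CPM in 4 HU Ctrl males against 6.13, 8.26 and 10.3 CPM in 3 HU Ctrl females, and 15.0 to 20.4 CPM in 5 AMB mKO males against 10.1 and 11.2 CPM in 2 AMB mKO females. In those groups the sexes did not overlap, and in the other groups they did. How many of all genes separate the sexes at these numbers of mice was not counted. In HU mKO mice Smox was 11.4, 12.2 and 14.0 CPM in males against 8.71 to 14.7 CPM in 5 females. In AMB Ctrl mice Smox was 10.7, 11.9 and 34.0 CPM in males against 9.43 to 12.1 CPM in 5 females, so that replicate 1 alone stood above the females. Whether the difference between the sexes varies among groups was not tested. The other members had differences of males over females between -0.19 (Sat1) and 0.17 (Oaz1).

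**Figure D3:**
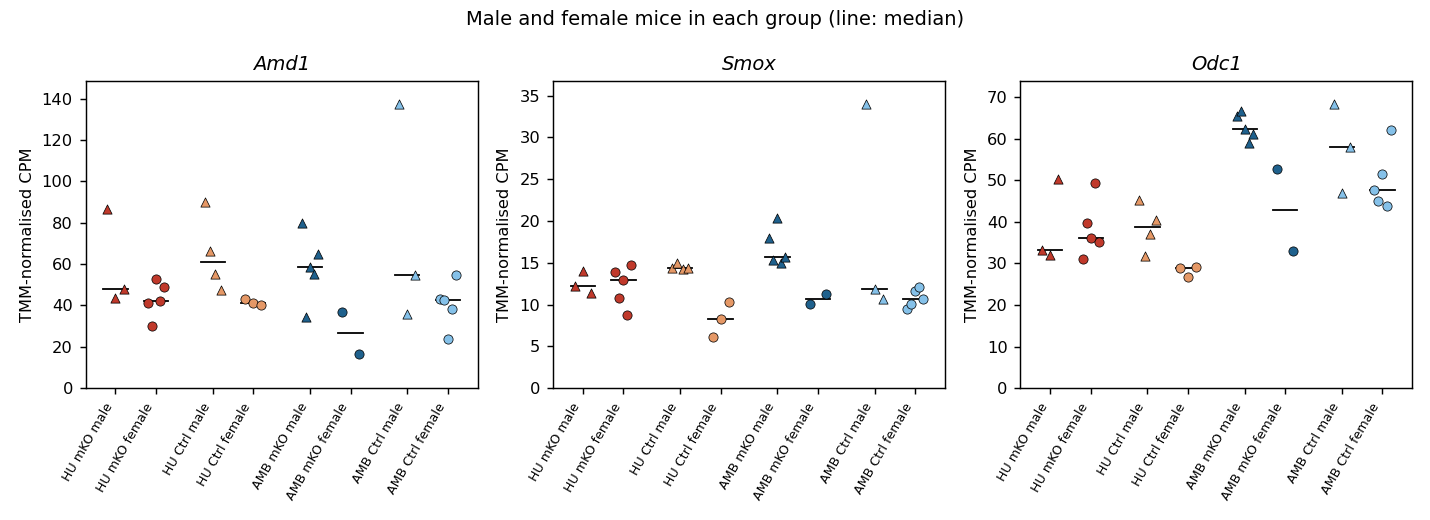
TMM-normalised CPM (y axes, linear from 0) of Amd1, Smox and Odc1 in male (triangles) and female (circles) mice of each group, 1 point per mouse, with lines at medians. Male medians of Amd1 exceed female medians in each of the 4 groups (48.1 against 42.0 CPM in HU mKO, 60.9 against 41.2 in HU Ctrl, 58.4 against 26.6 in AMB mKO and 54.8 against 42.8 in AMB Ctrl mice).

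Amd1 and Smox also varied together from mouse to mouse. Over the 30 libraries, with each gene centred on its group mean, Pearson's r of log2 CPM was 0.65 (2-sided permutation within groups, p = 0.00123, adjusted p = 0.00738 over 6 pairs) and Spearman's rho 0.58 (permutation p = 0.00141, adjusted 0.00846). Without the 2 libraries farthest from the median of Amd1, r was 0.46. With sex also removed, over all 30 libraries, r was 0.44 (permutation p = 0.0314, adjusted 0.137). Spearman's rho was then 0.25 (permutation p = 0.191, adjusted 0.573). With sex removed and the 2 farthest libraries left out, r was 0.26. Within title letters a, b and c, r was 0.56, 0.79 and 0.76, and none of these passed the adjusted permutation test. Odc1 and Amd1 gave r = 0.57 and rho = 0.47 (permutation p = 0.00312 and 0.00999, adjusted 0.00936 and 0.0300), but r was 0.38 without the 2 farthest libraries and -0.23, 0.04 and 0.77 within letters a, b and c. Odc1 and Smox gave r = 0.42 and rho = 0.37 (permutation p = 0.0215 and 0.0571, adjusted 0.0431 and 0.114), 0.36 without the 2 farthest libraries, and -0.67, -0.34 and 0.67 within letters. Neither relation held within each letter, and without AMB mKO replicate 2 both had an adjusted permutation p of 0.0662 (r = 0.41 and 0.38). Without that library and AMB Ctrl replicate 1, Amd1 and Smox gave r = 0.40 (permutation p = 0.0492, adjusted 0.295). The 2 breakdown genes, Smox and Sat1, gave r = -0.06 and rho = -0.0024 (permutation p = 0.765 and 0.991, adjusted 0.918 and 0.991). Amd1 and Smox against Myh7 gave r = 0.32 and -0.01, with rho = 0.05 and -0.15 (permutation p = 0.184 and 0.938 for r, adjusted 0.276 and 0.938; 0.801 and 0.415 for rho, adjusted 0.962 and 0.623). Without AMB mKO replicate 2 these r were -0.39 and -0.44 (permutation p = 0.0486 and 0.0242, adjusted 0.0662 each).

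Levels of Myh4, the myosin of the fastest fibres, are set beside Amd1 and Smox; this gene was picked after its values were seen. Myh4 ran from 2676 to 18886 CPM in HU mKO, from 1257 to 8125 CPM in HU Ctrl, from 19.7 to 2861 CPM in AMB mKO and from 13.8 to 4658 CPM in AMB Ctrl mice. Ambulatory mice fell into separate sets, with 6 AMB Ctrl mice and 1 AMB mKO mouse at 13.8 to 28.6 CPM, 1 AMB mKO mouse at 151 CPM and the other ambulatory mice at 736 CPM or more. Pooled over all 30 libraries, the group-centred relations of Amd1 and of Smox with Myh4 were positive and passed the permutation test. Without AMB Ctrl replicate 1 and AMB mKO replicate 2, Amd1 still passed (adjusted permutation p = 0.0124 for r). Smox then did not pass by r (adjusted permutation p = 0.0558) and did by rho (0.0361). A pooled r across separate sets is not given. Relations of Amd1, Smox and Odc1 with Myh4 were computed within the sets instead, a choice made after the values were seen, with p-values adjusted over 9 relations. In 15 unloaded mice Smox and Myh4 gave r = 0.67 (permutation p = 0.00535, adjusted 0.0482) and rho = 0.43 (permutation p = 0.0819, adjusted 0.225), but r was 0.24 without the 2 libraries farthest from the median of Myh4, so the relation rests on those. Amd1 and Myh4 gave r = 0.29 and rho = 0.36 in these mice (permutation p = 0.319 and 0.202, adjusted 0.443 and 0.303). In the 7 ambulatory mice at 736 CPM or more, r was 0.95 for Amd1 and 0.89 for Smox, with rho = 0.89 and 0.82 (exact permutation p = 0.025 and 0.050 for r, adjusted 0.0875 and 0.112; 0.0333 and 0.125 for rho, adjusted 0.225 each). That set holds both AMB mKO replicate 2 and AMB Ctrl replicate 1, and without the 2 farthest libraries r was 0.64 and 0.79. The females of that set, AMB Ctrl replicate 8 and AMB mKO replicate 2, had the lowest Myh4 of their groups in it. Sex was not removed from these relations. In the 7 ambulatory mice at 13.8 to 28.6 CPM, r was 0.75 for Amd1 and -0.46 for Smox, with rho = 0.79 and -0.43 (exact permutation p = 0.075 and 0.344 for r, adjusted 0.135 and 0.443; 0.0806 and 0.389 for rho, adjusted 0.225 and 0.438). The single AMB mKO mouse at 13.8 to 28.6 CPM lies at 0 after centring on its group, so the relations there rest on the 6 AMB Ctrl mice. Odc1 and Myh4 did not pass the adjusted permutation test in any of the 3 sets. The highest value of Amd1, Smox and Odc1 among AMB Ctrl mice (138, 34.0 and 68.4 CPM) came from the same library as the highest Myh4 of that group.

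**Figure D4:**
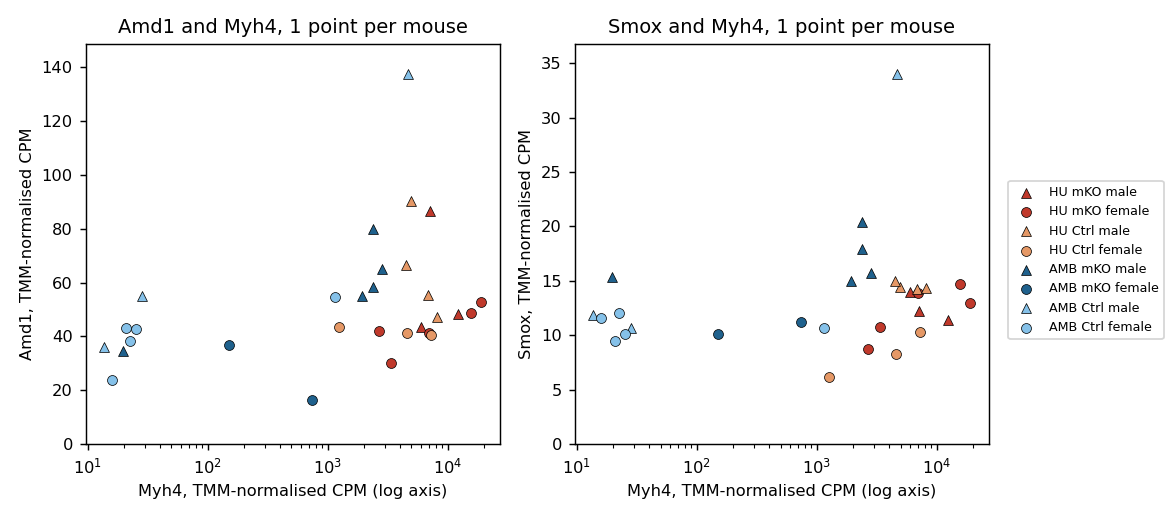
Amd1 (left) and Smox (right) in TMM-normalised CPM (y axes, linear from 0) against Myh4 in TMM-normalised CPM (x axes, log scale), 1 point per mouse, coloured by group, triangles male and circles female. The AMB Ctrl male at 4658 CPM of Myh4 has the highest value of both genes, 138 CPM of Amd1 and 34.0 CPM of Smox.

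Of the paralogues and side enzymes (Amd2, Azin2, Oaz3, Paox, Sat2, Satl1), 3 of 6 had enough counts to be tested, and 1 was called. That call was in HU Ctrl over AMB Ctrl, where 11.1% of all genes tested were called. Paox, the peroxisomal oxidase of acetylated polyamines, rose to a lowest, median and highest value of 6.94, 8.70 and 12.1 CPM in HU Ctrl mice, against 4.48, 5.97 and 8.53 CPM in AMB Ctrl mice. The ranges overlapped, and the log2 change was 0.71 ± 0.18, 1.64-fold (adjusted p = 0.0111, edgeR's quasi-likelihood test). In HU mKO mice Paox was 6.71, 9.30 and 13.5 CPM (lowest, median and highest), against 4.90, 7.00 and 16.3 CPM in AMB mKO mice. The means were 9.45 ± 2.05 and 8.22 ± 3.78 CPM, with a log2 change of 0.11 ± 0.18. The interaction was -0.60 ± 0.26 (adjusted p = 0.999, same test). The part of the highest AMB mKO value in these estimates was not tested. Amd2, a near copy of Amd1 on the same chromosome, had a median count of 3 and a highest count of 14. The promoter windows of Amd1 and Amd2 share a run of 48 bases, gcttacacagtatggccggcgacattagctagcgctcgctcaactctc. How reads were divided between the pair was not tested.

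None of the other pathway lists had a member called in any of the 6 comparisons. These were 3 tested genes of 6 for arginine and ornithine supply, 10 of 11 for methionine cycling and salvage, 8 of 11 for transport and 4 of 4 for hypusine, the spermidine-derived residue of the translation factor eIF5A. Eif5a, named here after its values were seen, averaged 149 ± 31.7 CPM in HU mKO against 169 ± 36.5 CPM in AMB mKO mice and 144 ± 30.8 CPM in HU Ctrl against 162 ± 15.9 CPM in AMB Ctrl mice, with log2 changes of -0.18 ± 0.16 in both. Myc, Mycn, Max, Mxi1 and Cdkn1a, genes reported to regulate polyamine genes, were not called in any of these comparisons either. Myc, whose protein is known to bind the Odc1 promoter, is also given after its values were seen; it averaged 6.66 ± 1.00 CPM in HU mKO against 6.96 ± 3.46 CPM in AMB mKO mice and 5.46 ± 1.58 CPM in HU Ctrl against 5.15 ± 2.43 CPM in AMB Ctrl mice.

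The genes whose profile was most like that of Odc1 over the 30 libraries were Mtx1, which encodes a protein of the mitochondrial outer membrane, Serf2, and Sgcd, which encodes a sarcoglycan of the muscle membrane. Their root-mean-square differences from Odc1, on centred log2 CPM, were 0.22, 0.23 and 0.23 among 12398 candidates, while Odc1 itself had an SD of 0.41. In HU Ctrl over AMB Ctrl mice their log2 changes were -0.53, -0.71 and -0.50, and in HU mKO over AMB mKO mice -0.39, -0.51 and -0.39. Since they were chosen for a likeness to Odc1, these changes are a description.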

How the data were processed

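Directional RNA-seq libraries of 30 mouse soleus muscles were read on a NovaSeq, per the labels' protocols; other parts of that protocol text describe human samples and cultured myotubes and were not used. The authors deposited 1 table of raw counts per gene. Tools in the submitters' processing notes are featureCounts 1.6.3, STAR 2.7.9a, DESeq2 1.34.0 and cutadapt 1.16, with GRCm39 as the build; the sources used here do not give the annotation release or the strand setting. Reads of near copies (Amd2, pseudogenes of Oaz1, Oaz2, Sms and Amd1) and of overlapping genes (Gm22748 in Odc1, Mir6951 and the antisense Gm49077 in Azin1, Mir1982 in Oaz1) could therefore be assigned in more than 1 way. Of these copies, the Oaz1 pseudogene Oaz1-ps held the highest median count, 38.

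Groups came from the sample labels. edgeR 4.0.16 in R 4.3.3 was run on the counts (TMM scaling, filterByExpr with a minimum count of 10 and a minimum total of 15, robust quasi-likelihood fit of group and sex over all 30 libraries), with Benjamini-Hochberg adjustment over 16932 genes at 0.05. Relations were computed on log2 CPM (prior count 2), with 1e+05 permutations within groups. Levels per length used the merged length of all annotated exons of each gene in GENCODE M21. Promoter windows came from RefSeq on GRCm38.p6, so no coordinates of the counted genes are given. Alternatives used DESeq2 1.42.0, limma 3.58.1 (voom with library weights), median-of-ratios scaling, other filters, sex left out, the title letter added, the compared groups alone and libraries left out. The p-values of edgeR's test set differences against the spread between mice, estimated over all 4 groups together. Permutation p-values refer to relations between genes. The members and gene lists were chosen with earlier results of these data known. Every member is named, along with each gene of the further lists that was called (except for an item that is not reported here), Prkaa1, Prkaa2, and the 3 genes nearest to Odc1 in profile among those with a mean of at least 1 CPM.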

Additional observations from a re-analysis of the deposited data

Results flagged for a closer look

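Of 36 sets of values (9 genes in 4 groups), 7 held a mouse that stood apart from the others of its group by Dixon's criterion at the 95% level. Chance gives about 1 such set in 20 if sets are independent and normally distributed. These sets are CPM of the same 30 libraries, so that rate does not apply as it stands. How many sets over all genes are flagged was not counted. AMB mKO replicate 2, the library low in muscle fibre markers and high in adipocyte markers, accounted for 4 of them. It had 32.9 CPM of Odc1 against 52.6 to 66.8 CPM in the other AMB mKO mice, 4.84 CPM of Sms against 32.7 to 46.3 CPM, and 21.7 CPM of Oaz2 against 66.4 to 100 CPM. Its Sat1 was high, at 32.3 CPM against 10.4 to 18.4 CPM. AMB Ctrl replicate 1, which held the most Myh4 of its group, accounted for 2: Amd1 at 138 CPM against 23.8 to 54.8 CPM in the other AMB Ctrl mice, and Smox at 34.0 CPM against 9.43 to 12.1 CPM. HU mKO replicate 1 had 86.5 CPM of Amd1 against 30.2 to 52.6 CPM in the other HU mKO mice. The part of tissue composition in these values was not tested.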

How the results depend on the processing

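Odc1 stayed lower with unloading in HU Ctrl mice and past the threshold under all alternatives run, with log2 changes of -0.75 to -0.62. In HU mKO mice it stayed lower throughout (-0.58 to -0.38), and the call was lost in the settings named in the results; the cause was not tested. Paox stayed called in HU Ctrl mice. Members called in HU mKO over AMB mKO numbered 0 without a low-count filter and with the compared groups alone, 2 with limma's voom (which also called 2 in HU Ctrl over AMB Ctrl), and 0 to 1 with 1 library left out. Between the sexes the number was 2 with DESeq2, 1 with the title letter, and 0 to 1 with 1 library left out. Numbers over all genes follow for some of these settings only. The other counts of members, such as those in HU mKO over AMB mKO, lack that share to be read against. Over all genes, limma's voom called 4257 in HU Ctrl over AMB Ctrl against 1882 with edgeR, DESeq2 called 126 between the sexes against 36, and 9 in AMB mKO over AMB Ctrl against 3. No paired analysis was possible because replicate numbers follow accession order and the labels give no number that pairs mice across groups.

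Of 56 results, 30 changed sign under some setting. None of these was called, and the largest was 0.40 on the log2 scale; the cause of the changes below was not tested. In AMB mKO over AMB Ctrl, Odc1 was -0.0030 with median-of-ratios scaling, -0.0034 with DESeq2, -0.0026 without a filter, -0.038 with the title letter and -0.023 with the compared groups alone. Sms there was -0.18 with the letter and -0.026 with the compared groups. Smox was 0.13 without sex. Limma's voom gave -0.13 (Srm), 0.079 (Smox), 0.074 (Oaz1), 0.22 (Oaz2) and 0.072 (Amd1). Without the 3 libraries highest in Adipoq, Oaz1 was 0.011 and Oaz2 0.13. Without AMB Ctrl replicate 1 and AMB mKO replicate 2, a setting chosen after seeing the data, the values were 0.30 (Smox), 0.061 (Oaz1), 0.082 (Oaz2) and 0.11 (Amd1). Leaving out 1 library gave -0.059 to 0.11 (Odc1), -0.14 to 0.27 (Smox), -0.24 to 0.0048 (Oaz1) and -0.22 to 0.11 (Oaz2).

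In HU mKO over HU Ctrl, Srm was -0.0076 without a filter, -0.078 without the Adipoq libraries and -0.0048 with the compared groups alone. Amd1 was -0.00058 without a filter, -0.16 without sex, -0.056 without the 2 libraries and -0.043 with the compared groups. Oaz2 was -0.0082 with the letter and -0.025 with the compared groups, and Sms was -0.0033 without the 2 libraries and -0.039 with the compared groups. Leaving out 1 library gave -0.066 to 0.069 (Srm), -0.062 to 0.15 (Oaz2), -0.063 to 0.15 (Sms) and -0.064 to 0.10 (Amd1).

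In HU Ctrl over AMB Ctrl, limma's voom gave -0.15 (Sat1), 0.11 (Sms) and 0.044 (Amd1), Amd1 was 0.025 without sex, and without the 2 libraries Sms was 0.038 and Amd1 0.23. Leaving out 1 library gave -0.027 to 0.15 (Sat1), -0.18 to 0.023 (Sms) and -0.20 to 0.17 (Amd1). In HU mKO over AMB mKO, Amd1 was -0.0084 without sex, Sat1 -0.037 and Sms 0.035 with the letter, and leaving out 1 library gave -0.12 to 0.29 (Sat1) and -0.13 to 0.024 (Smox).

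The interaction of Azin1 was 0.0014 with DESeq2, 0.048 without sex and 0.045 with the letter. Limma's voom gave 0.16 (Srm), 0.28 (Sat1), -0.17 (Oaz1) and -0.17 (Oaz2). Without sex it was 0.034 (Sat1), -0.066 (Smox), -0.056 (Oaz1) and -0.034 (Amd1), and Sms was 0.18 with the letter. Without the Adipoq libraries Sat1 was 0.16 and Oaz1 -0.032. Without the 2 libraries the values were 0.013 (Srm), 0.16 (Sat1), -0.12 (Smox), -0.17 (Oaz1), -0.060 (Oaz2) and -0.16 (Amd1). Leaving out 1 library gave -0.23 to 0.22 (Sat1), -0.084 to 0.40 (Smox), -0.11 to 0.15 (Oaz1), -0.090 to 0.065 (Azin1), -0.095 to 0.28 (Oaz2) and -0.37 to 0.054 (Sms).

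For males over females, limma's voom gave 0.047 (Srm), 0.026 (Sat1), -0.17 (Oaz2) and -0.056 (Sms). Without the Adipoq libraries the values were 0.022 (Sat1), -0.11 (Oaz2) and -0.066 (Sms), and without the 2 libraries -0.030 (Oaz2) and -0.051 (Sms). Leaving out 1 library gave -0.048 to 0.16 (Oaz2) and -0.011 to 0.23 (Sms).

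For the relations, r without the 2 libraries was 0.26 (Odc1 and Amd1), 0.21 (Odc1 and Smox), 0.40 (Amd1 and Smox) and -0.18 (Amd1 and Myh7). Within letter a it was -0.23, -0.67, 0.56 and -0.20 for the same pairs and 0.93 for Smox and Sat1. Within letter b it was 0.039, -0.34, 0.79 and -0.66. Within letter c it was 0.77, 0.67 and 0.76 for the first 3 pairs and 0.19 for Smox and Myh7. With sex removed, a setting also added after seeing the data, it was 0.38, 0.15 and 0.44, and 0.093 for Smox and Sat1. Without AMB mKO replicate 2 it was 0.41, 0.38 and, for Amd1 and Myh7, -0.39, and 0.041 for Smox and Sat1. Groups of 7 or 8 mice limit the intervals.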
